A study of Danio rerio with 8 samples.

Results

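The levels of 7 genes named for the B lymphocyte lineage were followed in red fluorescent cells of the injured zebrafish heart. The genes are ighm, ighd, cd79a, PAX5 (ENSDARG00000037383), irf4b, cd22 and PRDM1 (ENSDARG00000002445), 7 of 10479 gene identifiers in the deposited table. They were chosen by name and identifier with earlier results of these libraries known, so their difference between the populations is given as a description, without a test. The fish were adults of 6 to 9 months carrying both Tg(wt1b:eGFP; mpeg1:mCherry) reporters, and all hearts were cryoinjured, which freezes part of the ventricle. Cells were sorted 4 days after injury, per the labels, into mpeg1:mCherry cells (called single positive) and mpeg1:mCherry/wt1b:eGFP cells (called double positive). Each population has 4 libraries, numbered 1, 2, 4 and 5, of which 1 and 2 belong to library batch 1 and 4 and 5 to library batch 2. Each library pooled the cells of 5 to 7 hearts. No uninjured heart enters the comparison, and both populations are defined by a promoter's activity rather than by a surface marker.

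A B lymphocyte is recognised by its antigen receptor, a membrane immunoglobulin held in a complex with the signalling chains CD79A and CD79B. The transcription factor PAX5 sets and keeps B cell identity, in mouse partly by activating the gene of CD79A. When a B cell becomes an antibody-secreting plasma cell, PRDM1 (also called Blimp-1) represses the gene of PAX5, and IRF4 drives this step, as worked out in mammals. The mpeg1 promoter, which drives mCherry here, is a macrophage promoter, but in adult zebrafish its reporters are also known to label B lymphocytes. A red cell in these sorts is therefore not a macrophage by definition.

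The deposited values are the authors' normalized counts, a linear scale on which the libraries sum to between 803219.5 and 1021901 each. Read depth behind them is unknown. The table holds no 0, and its lowest value is 0.0143, so a value under 1 may come from the normalization rather than from reads. Double positive library 1 stands apart, with 42.3% of identifiers under 1 against 10.7% to 19.7% in the other 7 libraries. Transcripts of wt1b, which check the sort, ranged from 0.122 to 0.469 in single positive libraries against 13.6 to 63.1 where eGFP was present. The red reporter's own gene family was present in both populations, since MPEG1 ENSDARG00000055290 averaged 452 ± 103 normalized counts over the single positive and 352 ± 126 over the double positive libraries (SD, n = 4 each).

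The 7 genes fell into a group of 5 that was high in single positive cells and a pair that was high in double positive cells. The immunoglobulin heavy chain genes ighm and ighd, the receptor signalling chain gene cd79a and the transcription factor genes PAX5 and irf4b lay lower in every double positive library than in every single positive library. The genes cd22 and PRDM1 lay higher in every double positive library than in every single positive library. Over all 10127 tested genes, 7.0% lay wholly lower and 7.12% wholly higher in the double positive libraries. Because the choice of genes used this contrast, nothing is read from those counts. In sorted pools of cells, fewer cells of a type and less RNA per cell cannot be told apart.

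**Figure D1:**
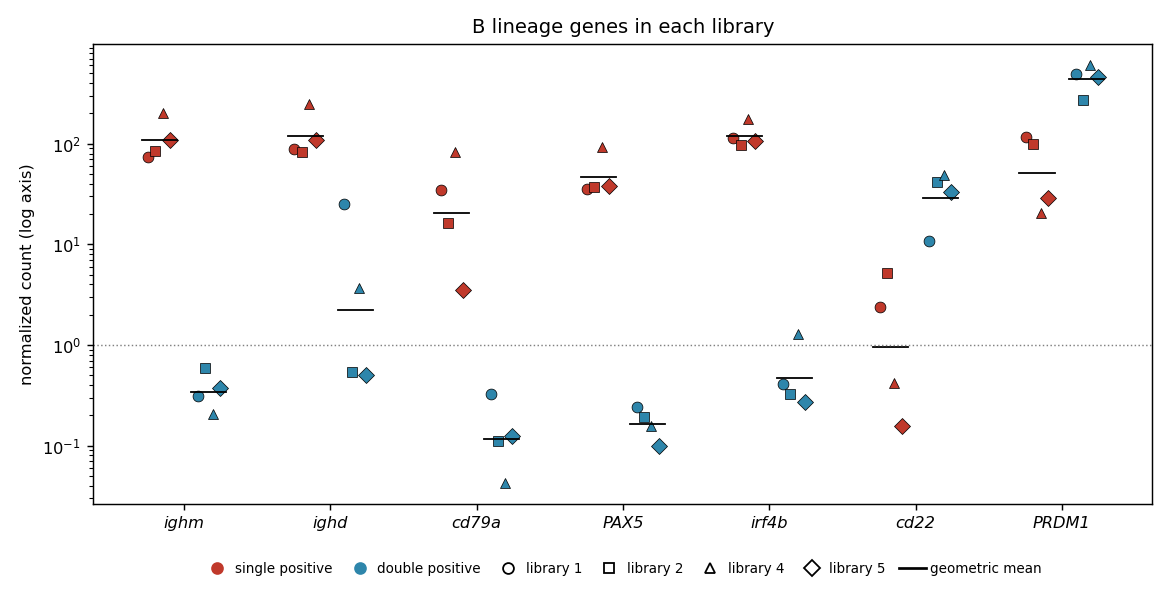
Normalized counts (log axis) of the 7 genes in the 4 single positive (red) and 4 double positive (blue) libraries, with the library number as symbol shape and the geometric mean of each population as a line; the dotted line marks 1. The first 5 genes lie between 3.53 and 249 in single positive libraries and reach at most 25.1 in double positive ones, while cd22 and PRDM1 are the other way round.

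The gene ighm (ENSDARG00000096355) encodes the heavy chain of IgM. Its normalized counts were 74.4, 84.5, 202 and 109 in single positive libraries 1, 2, 4 and 5. In double positive libraries 1, 2, 4 and 5 they were 0.314, 0.584, 0.207 and 0.370. Every single positive library was thus far above a value of 1 and every double positive library below it. The log2 difference, double minus single positive on the log2(value + 1) scale, was -6.33 (SE 0.98), with -5.80 in batch 1 and -6.86 in batch 2.

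The gene ighd (ENSDARG00000096248) encodes the heavy chain of IgD, which naive B cells carry beside IgM, and it lies in the same heavy chain locus as ighm. Its normalized counts were 89.5, 82.5, 249 and 110 in single positive libraries 1, 2, 4 and 5. The double positive libraries held 25.1, 0.538, 3.72 and 0.502. The single positive values moved with those of ighm, but the double positive values did not. Double positive library 1 reached 25.1 for ighd with 0.314 for ighm, and library 4 reached 3.72 with 0.207. The lowest single positive value of ighd was 3.29 times the highest double positive value, whereas for ighm the same ratio was 127. The log2 difference of ighd was -4.87 (SE 0.93), with -3.78 in batch 1 and -5.97 in batch 2, and -5.91 without double positive library 1. The sources used here do not say how the authors divided reads between the linked genes.

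The gene cd79a (ENSDARG00000037473) encodes the signalling chain that carries the antigen signal into the cell. Its normalized counts were 35.0, 16.5, 83.6 and 3.53 in single positive libraries 1, 2, 4 and 5. In the double positive libraries they were 0.326, 0.110, 0.0426 and 0.124. The populations did not overlap, but the single positive values spread 23.7-fold between libraries 4 and 5, compared with 2.72-fold for ighm. The log2 difference was -4.27 (SE 1.17), and it was alike in batch 1 (-4.37) and batch 2 (-4.18).

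PAX5, the gene of the B cell identity factor, had 35.3, 37.5, 92.7 and 38.2 normalized counts in single positive libraries 1, 2, 4 and 5. In the double positive libraries it had 0.241, 0.190, 0.157 and 0.0982. No double positive library reached 1, and library 4 stood above the other 3 single positive libraries, which lay within 35.3 to 38.2. The log2 difference was -5.35 (SE 1.11), with -4.94 in batch 1 and -5.75 in batch 2.

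The gene irf4b (ENSDARG00000055374) is a zebrafish counterpart of IRF4, an interferon regulatory factor of lymphoid cells. Its normalized counts were 114, 97.8, 175 and 106 in single positive libraries 1, 2, 4 and 5. The double positive libraries held 0.410, 0.326, 1.29 and 0.274. Among the 5 genes high in single positive cells it varied least between single positive libraries, 1.79-fold from lowest to highest. The log2 difference was -6.31 (SE 0.93), with -6.29 in batch 1 and -6.33 in batch 2.

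The gene cd22 (ENSDARG00000053005) is named after the mammalian inhibitory receptor that dampens antigen receptor signalling in B cells. Its normalized counts were 2.41, 5.13, 0.418 and 0.156 in single positive libraries 1, 2, 4 and 5. In the double positive libraries they were 10.9, 41.3, 48.8 and 33.0. The gene thus ran against ighm, PAX5 and cd79a in spite of its name, and the lowest double positive value was 2.12 times the highest single positive one. Whether it is the true counterpart of mammalian CD22 was not checked, so its symbol may not tell its cell type. The log2 difference was 3.65 (SE 1.15), with 2.30 in batch 1 and 5.01 in batch 2.

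PRDM1 encodes the repressor that ends the B cell programme in plasma cells, and in mammals it is also made in myeloid cells. Its normalized counts were 117, 99.7, 20.7 and 29.1 in single positive libraries 1, 2, 4 and 5. In the double positive libraries they were 492, 270, 608 and 460. PRDM1 was above 20 in every library of both populations, which no other of the 7 genes was. The log2 difference was 3.06 (SE 0.45), with 1.74 in batch 1 and 4.37 in batch 2.

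All 7 genes passed the filter on low values, which asked 4 or more of the 8 libraries to hold at least 1 normalized count for each 1000000 of their own total. For ighm, cd79a and PAX5 the passing libraries were all single positive. For ighd 2 double positive libraries passed as well, and for irf4b 1. All 4 double positive libraries and 2 single positive libraries carried cd22 through the filter.

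Across the 4 single positive libraries, ighm, ighd and PAX5 stayed in similar proportion to each other, irf4b varied little, and cd79a, cd22 and PRDM1 followed other courses. Library 4 held the highest value of all 5 genes that were high in single positive cells. Of all tested genes, 20.5% had their highest single positive value in library 4. The order of libraries 1, 2 and 5, which lay close together for most of these genes, was not the same from gene to gene. Taken per unit of ighm in the same library, ighd was 1.203, 0.976, 1.23 and 1.00 in libraries 1, 2, 4 and 5, so the ratio changed 1.26-fold while ighm itself changed 2.72-fold. The ratio of PAX5 to ighm was 0.475, 0.444, 0.459 and 0.349, a 1.36-fold range. The ratio of irf4b to ighm was 1.54, 1.16, 0.868 and 0.973, a 1.77-fold range, which is hardly narrower than the 1.79-fold range of irf4b itself. The ratios compare libraries rather than genes, since the sources used here do not say whether the values are scaled by gene length.

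Likeness between profiles was measured as the root mean square difference of log2(value + 1) after each gene was centred on its mean. Over the 4 single positive libraries it was 0.15 between ighm and ighd, 0.17 between ighm and PAX5, 0.14 between ighd and PAX5, and 0.31 between ighm and irf4b. Because ighm and ighd lie in the same heavy chain locus, their likeness is not that of independent genes. The median of all tested genes against ighm was 1.12, and the share of the other tested genes that lay as close to ighm was 0.336% for the distance of ighd, 0.435% for that of PAX5 and 2.63% for that of irf4b. With 4 libraries this is a description and carries no p-value. The genes were chosen with earlier results of these libraries known, so the shares here and below are not independent evidence.

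The gene cd79a shared the peak in library 4 but not the rest. Its ratio to ighm was 0.471, 0.195, 0.414 and 0.0323 in libraries 1, 2, 4 and 5, a 14.6-fold range. Its difference of profile from ighm was 1.41, and 65.7% of the other tested genes lay as close to ighm as that. Library 5, where cd79a had its lowest single positive value of 3.53, had the second highest ighm value, 109.

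PRDM1 and PAX5 were opposed in single positive library 4, which had the lowest PRDM1 value (20.7) and the highest PAX5 value (92.7). Over libraries 1, 2 and 5 PAX5 stayed within 35.3 to 38.2 while PRDM1 ranged from 29.1 to 117. The ratio of PRDM1 to PAX5 was 3.33, 2.66, 0.223 and 0.763 in single positive libraries 1, 2, 4 and 5. Being lowest in library 4 is common in these data, since 36.2% of tested genes were. The order of PRDM1 over the single positive libraries was 1, 2, 5 and 4 from high to low. The summed level of 19 macrophage marker identifiers had the same order, with 2889, 2130, 1352 and 1051 normalized counts. So had the summed level of 7 cardiomyocyte identifiers, with 178, 111, 45.3 and 28.0. Sums of the T and NK, neutrophil, endothelial, thrombocyte, and epicardial and fibroblast lists were also lowest in library 4. Those of the dendritic and erythroid lists were not. In double positive libraries 1, 2, 4 and 5 the macrophage sum was 5906, 5571, 10270 and 9779, where libraries 1 and 5 stood in another order than for PRDM1. The part of macrophage or cardiomyocyte content in the PRDM1 values was not tested. The profile of cd22 lay 0.49 from that of PRDM1 over the single positive libraries, and 4.71% of the other tested genes lay as close to PRDM1. The ratio of cd22 to PRDM1 was 0.0205, 0.0515, 0.0202 and 0.00537 in single positive libraries 1, 2, 4 and 5, a 9.60-fold range. The cd22 values of libraries 4 and 5 were under 1 (0.418 and 0.156), where the added 1 narrows differences.

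**Figure D2:**
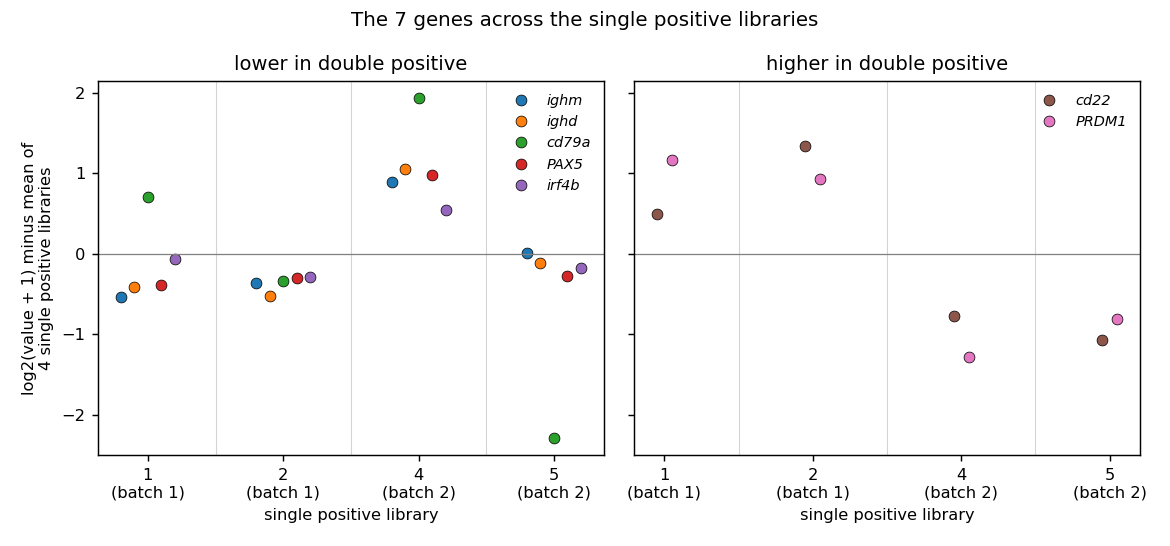
Deviation of log2(value + 1) from the mean of the 4 single positive libraries, for the 5 genes lower (left) and the 2 genes higher (right) in double positive cells; each point is 1 gene in 1 library. In library 4 the left-hand genes all lie above 0, from 0.54 for irf4b to 1.93 for cd79a, while PRDM1 lies at -1.28 and cd22 at -0.77.

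Within the double positive libraries the 5 low genes gave no shared order. The highest double positive value was in library 2 for ighm, in library 1 for ighd, cd79a and PAX5, and in library 4 for irf4b. All but 3 of these 20 values were under 1, where an order between libraries cannot be read. The exceptions were ighd in libraries 1 and 4 and irf4b in library 4. PRDM1 and cd22 were both highest in double positive library 4, but cd22 was lowest in library 1 (10.9) and PRDM1 in library 2 (270).

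Whether the population difference itself changed between library batches is a contrast other than the one the genes were chosen on, and it was tested as far as the values allow. For ighm, cd79a and PAX5 every double positive value was under 1, so the test rests on their single positive values and a missed threshold says nothing of stability. The test is also limited for irf4b, ighd and cd22. Under 1 were 3 double positive values of irf4b, 2 of ighd, and both single positive values of cd22 in batch 2. The interaction of population and batch was fitted over all 10127 tested genes with limma's moderated test and Benjamini-Hochberg adjustment. None of the 7 genes passed an adjusted p of 0.05, and 10 of all tested genes did (0.0987%). PRDM1 had the largest signal among the 7, with an interaction of 2.63 on the log2 scale (SE 0.60, limma unadjusted p = 0.000746, adjusted p = 0.208). It was the only 1 of the 7 with an unadjusted p under 0.05, a level that 9.59% of tested genes reached. The interactions of cd22 (2.71, SE 2.08, limma adjusted p = 0.691) and ighd (-2.19, SE 1.82, limma adjusted p = 0.719) were of similar size with wider errors. For PRDM1 the single positive mean was 2.09 lower and the double positive mean 0.54 higher in batch 2 than in batch 1, on the log2 scale. Opposite shifts of this kind were found in 75.0% of tested genes. Over all genes, the log2 mean of batch 1 minus that of batch 2 had a median of -0.00062 and an SD of 0.659. The sources used here do not say whether the authors adjusted values for batch, and the part of such a step in these shifts was not tested.

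Genes whose profile over all 8 libraries was most like that of ighm, PAX5 or PRDM1 were then taken by a fixed rule, the 6 nearest with a symbol. The differences are descriptions, because the population contrast enters them. Nearest to ighm were the chemokine receptor gene CXCR4 ENSDARG00000057633 at 0.23, irf4b at 0.39, RBM38 at 0.44, the tetraspanin gene cd37 at 0.45, PAX5 at 0.52 and ppt2a.2 at 0.55. The median over 8245 genes with a symbol was 3.27. CXCR4 ENSDARG00000057633 had 87.5, 102, 249 and 124 normalized counts in single positive libraries 1, 2, 4 and 5, the same order as ighm. Its double positive values were at most 0.745, where an order between libraries cannot be read. Choosing the nearest profiles favours a shared order, so the order shared with ighm is no support. Nearest to PAX5 were BAIAP3 at 0.28, RBM38 at 0.33, si:ch73-95l15.5 at 0.38, ppt2a.2 at 0.41, aff3 at 0.43 and ighm at 0.52. Among these, aff3 was high in both single positive libraries of batch 2, with 84.4 in each of libraries 4 and 5, where PAX5 was high in library 4 alone.

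PRDM1 had other neighbours. They were the protease inhibitor gene TIMP2 ENSDARG00000075261 at 0.33, ARHGEF10 at 0.35, the membrane repair gene MYOF at 0.35, the macrophage mannose receptor gene mrc1b at 0.39, cbr1l at 0.42 and the fatty acid receptor gene GPR84 at 0.43. The mannose receptor gene mrc1b had 262, 136, 34.7 and 57.1 normalized counts in single positive libraries 1, 2, 4 and 5, the same order as PRDM1, and 583, 573, 668 and 1035 in the double positive libraries. The order shared by mrc1b and PRDM1 is favoured by taking the nearest profiles and is no support. The profile distance includes the population difference the genes were chosen on, which was 3.06 for PRDM1, -6.33 for ighm and -5.35 for PAX5. No gene of the ighm or PAX5 groups stood among the neighbours of PRDM1, an outcome fixed in advance by that difference. PRDM1 lay 4.35 from PAX5 and 4.84 from ighm, but 0.82 from cd22, and nothing is read from these distances.

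**Figure D3:**
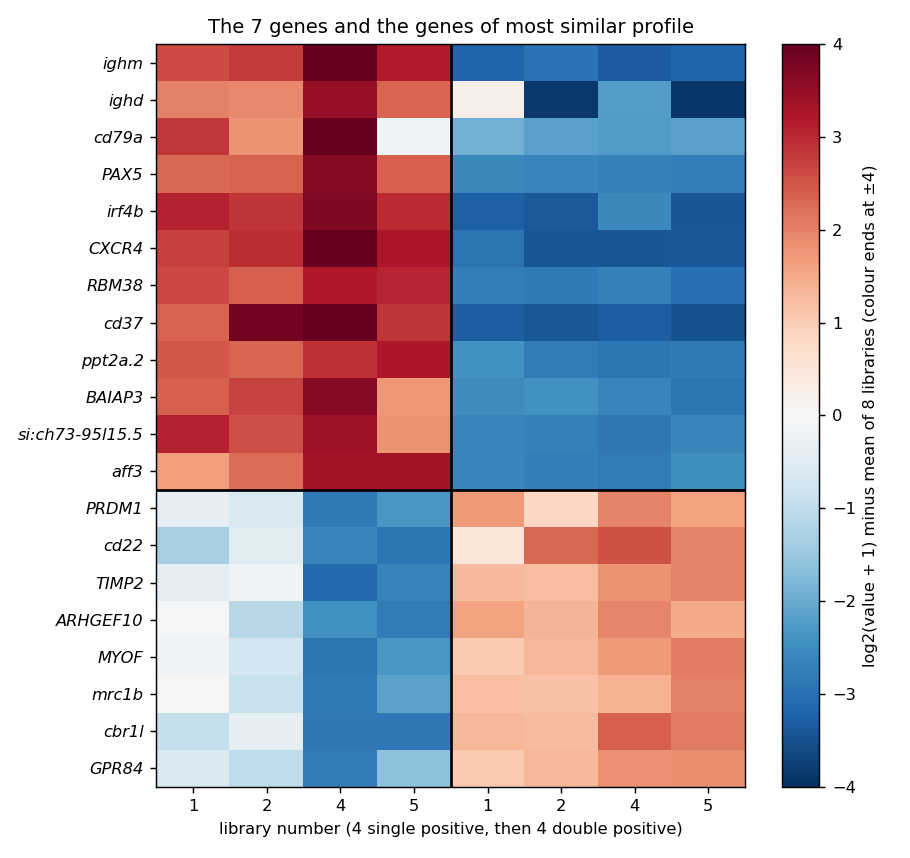
log2(value + 1) minus each gene's mean over the 8 libraries for the 7 genes and their nearest neighbours; columns are single positive libraries 1, 2, 4 and 5 and then the same double positive numbers, and colours end at -4 and 4. CXCR4 is ENSDARG00000057633 and TIMP2 is ENSDARG00000075261; the upper block is high in single positive cells and strongest in library 4 for most genes, and the lower block, with PRDM1 and cd22, is weakest in single positive libraries 4 and 5.

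Both ighm and PAX5 belonged to a small set with at least 10 normalized counts in every single positive library and under 1 in every double positive library. This set was defined after the values were seen and holds 29 of the tested genes (0.286%). It also includes cd37, CXCR4 ENSDARG00000057633, BAIAP3, RBM38, aff3, linc-iglc3 and TLR7. Others in it are SLC6A4, adrb3b, METTL3, CAPG, triob, lmtk3 and identifiers without a symbol. The set is named here only in part and is not read as a B cell set. The genes irf4b (1.29 in double positive library 4), ighd and cd79a (3.53 in single positive library 5) fell outside.

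Further genes of the lineage moved in both directions. Lists of B cell receptor signalling, B lineage transcription, B cell surface and plasma cell genes held 74 tested identifiers besides the 7 genes, of which limma called 13 lower and 8 higher in double positive cells at an adjusted p of 0.05, taken over all tested genes. Of all 10127 tested genes, 2.81% were called lower and 3.88% higher, and of the 74, 17.6% and 10.8%. The median log2 difference was -0.57 over the 74 and -0.16 over all tested genes. The shares and median of all tested genes given here apply beside each list below. The lists were written with earlier results of these libraries known, so the counts are not independent evidence. One more list, of light chain and recombination genes, matched no symbol and was not analysed here.

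The list of B cell surface genes gave 5 lower and 1 higher of 12 tested, with a median of -1.72. Its calls include both paralogs of SWAP70, which does not encode a surface protein, and the 1 higher call is SWAP70 ENSDARG00000057286. The list was not shown to be particular to B cells. The tetraspanin gene cd37 had 67.5, 186, 283 and 94.2 normalized counts in single positive libraries 1, 2, 4 and 5, against 0.182 to 0.347 with eGFP. Its log2 difference was -6.73 (SE 0.97, limma adjusted p = 0.000544). With 0.1 or 5 added to the values in place of 1 it was -8.48 or -4.74, since every double positive value was under 1. The activation marker gene cd83 was abundant in both populations and fell from 1294 ± 354 to 353 ± 82.2 (SD over 4 libraries each), with a log2 difference of -1.87 (SE 0.24, limma adjusted p = 0.00028), a call lost without the mean-variance trend of the fit (limma adjusted p = 0.0762). Both CXCR4 paralogs fell, but to different degrees. CXCR4 ENSDARG00000041959 fell by 1.58 (SE 0.28, limma adjusted p = 0.00214) and stayed at 117 or more in every double positive library, with its call lost without the trend (limma adjusted p = 0.124), while CXCR4 ENSDARG00000057633 fell by 6.58 (SE 0.94, limma adjusted p = 0.000544). For CXCR4 ENSDARG00000057633 the size likewise depends on the added 1, with -8.19 for 0.1 and -4.64 for 5. The antigen presentation genes cd74a and cd74b and the costimulatory receptor gene cd40 were abundant and not called. The paralogs of SWAP70, which encodes a protein of B cell migration and switching in mouse, were called in opposite directions. SWAP70 ENSDARG00000051819 fell by 4.25 and SWAP70 ENSDARG00000057286 rose by 1.93 on the log2 scale (limma adjusted p = 0.016 and 0.0373), and the difference between the paralogs was not tested. Both SWAP70 calls were lost without single positive library 2, 4 or 5 among others (limma adjusted p up to 0.117 and 0.216), and that of SWAP70 ENSDARG00000057286 also without the trend (limma adjusted p = 0.169).

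**Figure D4:**
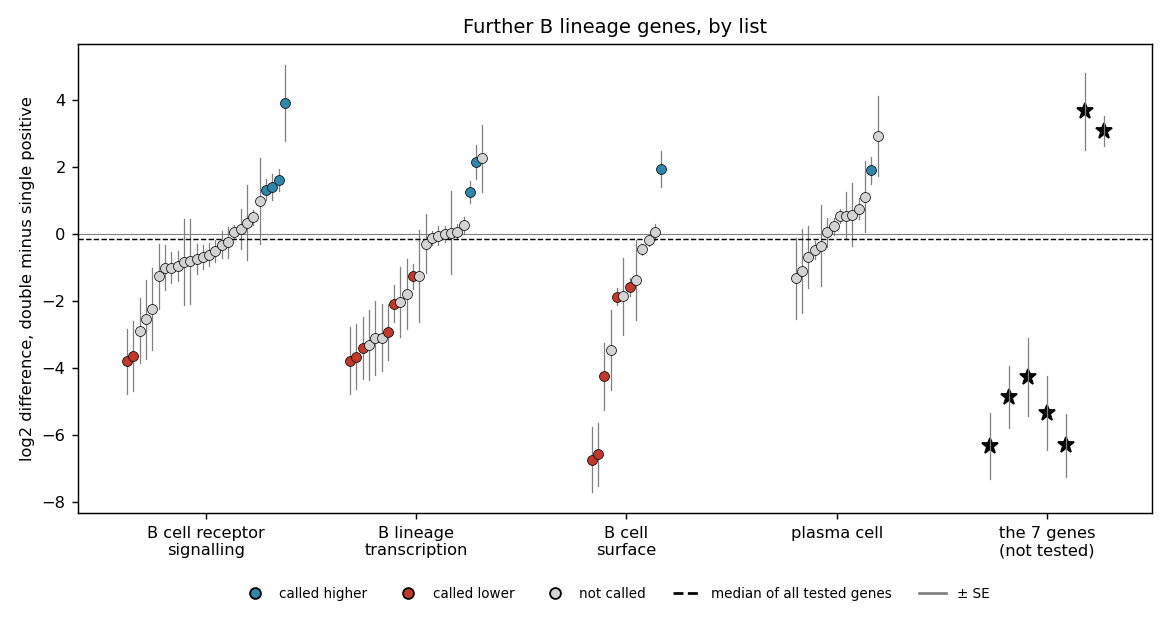
Log2 difference, double minus single positive on the log2(value + 1) scale, with standard errors, of the tested genes in 4 B lineage lists (circles, coloured by limma call at an adjusted p of 0.05) and of the 7 genes (stars, in the order ighm, ighd, cd79a, PAX5, irf4b, cd22, PRDM1, not tested); the dashed line is the median of all tested genes, -0.16. Surface genes reach -6.73, receptor signalling genes spread on both sides, and 1 of the 14 plasma cell genes was called.

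B lineage transcription factor genes gave 6 lower and 2 higher of 22 tested, with a median of -1.26. IRF4 ENSDARG00000006560, the paralog of irf4b, had 20.8, 5.16, 17.3 and 14.4 normalized counts in single positive libraries 1, 2, 4 and 5 and at most 0.155 in double positive ones. It fell by 3.66 on the log2 scale (SE 0.97, limma adjusted p = 0.0301). That size depends on the added 1, since with 0.1 or 5 added instead the log2 difference was -6.04 or -1.85. BCL6 ENSDARG00000070864, whose mammalian counterpart opposes PRDM1 in germinal centre B cells, fell from 143 ± 97.3 to 33.2 ± 22.7 (SD, n = 4 each), with its highest single positive value, 286, in library 4. Its log2 difference was -2.08 (SE 0.55, limma adjusted p = 0.0303). The other genes that fell were bcl6ab, MEF2C ENSDARG00000029764, IRF8 and ZEB2, by 1.27 to 3.79. Those that rose were zeb2a, by 2.14 (SE 0.50, limma adjusted p = 0.0157), and spi1a, a paralog of the myeloid and B cell factor PU.1, by 1.24 (SE 0.33, limma adjusted p = 0.0297). Each of these 8 calls was lost without at least 2 of the single libraries, with limma adjusted p up to 0.177. Without the mean-variance trend BCL6, bcl6ab, IRF8, zeb2a and spi1a lost theirs (limma adjusted p from 0.122 to 0.236), and bcl6ab also under median centring (limma adjusted p = 0.282).

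Receptor signalling genes showed 2 lower and 4 higher of 26 tested, with a median of -0.66. These are 7.69% and 15.4% of the list, against 2.81% and 3.88% of all tested genes. The adaptor gene pik3ap1 (BCAP) fell from 47.6 ± 13.7 to 2.73 ± 1.70 (SD over 4 libraries each), with a log2 difference of -3.80 (SE 0.97, limma adjusted p = 0.0254), and DAPP1 fell by 3.63 (SE 1.04, limma adjusted p = 0.044). The signalling adaptor gene bcl10 rose from 115 ± 49.96 to 339 ± 78.0 (SD over 4 libraries each, log2 difference 1.61, SE 0.32, limma adjusted p = 0.00604). The coreceptor partner gene CD81, found on many cell types, rose by 1.32, grb2b by 1.40 and vav3a by 3.90. The bcl10 call held without any single library but was lost without the mean-variance trend of the fit (limma adjusted p = 0.133). The others were each lost when any of 4 or more single libraries was left out (limma adjusted p up to 0.247), and CD81, grb2b and DAPP1 also without the trend (limma adjusted p = 0.265, 0.269 and 0.161). The linker gene blnk and the kinase genes BTK and SYK, which act directly below the receptor, were not called. The gene blnk had 149, 109, 326 and 136 normalized counts in single positive libraries 1, 2, 4 and 5 and 100 to 110 in double positive ones (log2 difference -0.62, limma adjusted p = 0.371). It too was highest in single positive library 4, but it did not fall to values near 0 in double positive cells.

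Plasma cell genes gave 0 lower and 1 higher of 14 tested, with a median of 0.37. The 1 higher gene is 7.14% of the list, against 3.88% of all tested genes, and is not read as a result about the list. The elongation factor gene ELL2 rose from 72.7 ± 31.4 to 260 ± 80.7 (SD over 4 libraries each), with a log2 difference of 1.89 (SE 0.39, limma adjusted p = 0.0075), and was lost without double positive library 4 (limma adjusted p = 0.0508) and without the trend (limma adjusted p = 0.123). XBP1, the factor of the secretory programme downstream of PRDM1 in mammals, did not pass (log2 difference 0.22, limma adjusted p = 0.718), nor did HSP90B1, EDEM1 or either DNAJB9 identifier. In all, 13 of the 14 were not called.

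Some markers of other cells also differed between the populations. Of 19 macrophage identifiers limma called 14 higher in double positive cells, and 5 were not called. IRF8, a macrophage factor as well, was counted in the B lineage transcription list instead and fell by 2.93 (limma adjusted p = 0.0432). In that same list the myeloid and B cell factor gene spi1a rose by 1.24. Both calls were lost without some of the single libraries. Of 6 dendritic cell identifiers 4 were lower (flt3, CCR9, TLR7 and tlr9), and their summed level ranged from 570 to 1079 over single positive libraries against 119 to 186 over double positive ones. TLR7 also belonged to the level-defined set that held ighm and PAX5, so the list was not shown to be particular to dendritic cells. The part of dendritic cells in the levels of the 5 low genes was not tested. The T and NK cell list matched 4 of 36 symbols (cd4-1, trbc1, il2rb and nkl.4), with sums of 17.8 to 41.6 over single positive libraries against 1.98 to 21.9 over double positive ones, and nkl.4 was called lower. Neutrophil identifiers gave 1 higher of 6, endothelial identifiers 1 lower of 6, and epicardial and fibroblast identifiers 3 higher of 8. The last list includes wt1b, whose promoter drives the eGFP of the sort, so the wt1b difference was fixed by the sort. Over all tested genes 3.88% were called higher and 2.81% lower, and single calls in lists this short are not read as results. None of the 7 cardiomyocyte, 3 thrombocyte or 1 erythroid identifiers was called.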

How the data were processed

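Polyadenylated RNA from 8 sorted pools was amplified from 1 ng and sequenced from 1 end over 60 to 61 bases, per the labels' protocols. The submitters' processing notes name RSEM 1.2.3, CASAVA 1.8.2, cutadapt and the genome build Zv9. The deposited values are a linear signal that the authors named normalized counts; its normalization and annotation and any filter are not stated in those sources, depth is unknown, and no counting interval can be given. Symbols matched 8512 of 10479 identifiers (81.2%). No coordinates or sequences are printed, because no reference of the authors' build was used here.

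Genes holding at least 1 for each 1000000 of a library's total in 4 or more libraries (10127) were tested on log2(value + 1) with limma 3.58.1 in R 4.3.3, mean-variance trend, library batch as covariate, two-sided, Benjamini-Hochberg threshold 0.05. Fold changes of low values are understated on this scale. The code was tested on simulated data. List symbols were matched ignoring case, or with the paralog letter dropped for symbols in capitals. The genes and lists were chosen with earlier results of these data known. Named genes are the 7, up to 4 per list of smallest p, and the 6 nearest profiles of ighm, PAX5 and PRDM1; others were named after their values were seen. Libraries are pools of different hearts per the labels, which do not say whether equal numbers share hearts. Alternatives were 2 pseudocounts, no filter, 2 scalings, no batch term, a replicate block, no trend, each batch alone and each library left out.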

Additional observations from a re-analysis of the deposited data

Results flagged for a closer look

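In 4 of 14 sets of 4 values, 1 library lay far from the other 3 (a gap to the nearest value above Dixon's critical share of the range). The rate of about 1 set in 20 by chance holds for independent, normally distributed values. The gaps were taken on linear values, and ighm, ighd and PAX5 were all highest in single positive library 4. The count of flagged sets is therefore not compared with that rate. In single positive library 4, PAX5 had 92.7 normalized counts (gap 0.95 of the range) and ighd 249 (gap 0.837). In double positive library 1, ighd had 25.1 (gap 0.869). In double positive library 4, irf4b had 1.29 (gap 0.865), close to values that may come from the normalization.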

How the results depend on the processing

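None of the 7 genes changed the sign of its population difference in 18 alternatives each, and 109 of 126 values stayed within 1 SD of the reported one. The populations did not overlap for any of these genes, which were chosen on this contrast, so a kept sign is no support. No filter, no batch term, the replicate block and no trend cannot move a log2 difference in this balanced design. Those settings left ighm at -6.33, and their values are among the 109. The pseudocount moved the low genes most. With 0.1 and 5 in place of 1, the log2 differences were -7.92 and -4.41 for ighm, -6.47 and -2.46 for cd79a, -7.45 and -3.33 for PAX5, and -7.70 and -4.49 for irf4b, and with 5 it was 2.37 for cd22. Quantile normalization gave -5.81 for ighm and -5.78 for irf4b. Batch 1 and batch 2 alone gave -5.80 and -6.86 for ighm, 2.30 and 5.01 for cd22 and 1.74 and 4.37 for PRDM1. Leaving out 1 library gave -5.14 to -3.45 for cd79a. No alternative called any of the 7 for the interaction with batch, a test that values under 1 limit for all but PRDM1.

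No B lineage gene called over both batches was called in batch 1 alone, where 2 libraries face 2. The count of other B lineage genes lower in double positive cells, 13, was 8 without the mean-variance trend, 0 in batch 1 alone, and 4 to 14 without 1 library (4 without library 4 of the single positive or library 5 of the double positive cells). The count higher, 8, was 1 without the trend, 0 in batch 1 alone, and 2 to 8 without 1 library. Over all tested genes, 393 higher became 124 without the trend, 0 in batch 1 alone and 169 to 497 without 1 library, and 285 lower became 0 in batch 1 alone, 152 in batch 2 alone and 101 to 308 without 1 library. Median centring moved the median of all tested genes from -0.16 to 0.12 and reversed none of the 7.

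The replicate block in place of the batch covariate gave 8 lower and 5 higher B lineage genes and 176 lower genes in all. Deviations from the population means correlated over genes at -0.292 to -0.112 between libraries of equal number, at -0.255 to -0.105 between other libraries of the same batch and at 0.0942 to 0.283 across batches, so the sign goes with batch, and pairing by number could not be judged. Read depth is unknown, which limits every value near or under 1.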
